A study of Mus musculus with 8 samples.

Results

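The 10 genes described here are markers that separate macrophages of the brain's borders, and blood monocytes, from the microglia of the brain tissue: Mrc1, Cd163, Siglec1, Lyve1, Ms4a7, Pf4, F13a1, Ccr2, Ly6c2 and Cbr2. They were chosen by symbol, and all 10 were found among the 25154 genes compared over 8 libraries of sorted microglia in 5 groups. The measure was the number of sequencing reads per gene, scaled to a common level between libraries and called the normalised read count below.

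Border macrophages live in the meninges, around vessels and in the choroid plexus, whereas microglia live in the tissue itself. The border cells take up material through scavenger and lectin receptors, of which Mrc1 (the mannose receptor CD206), Cd163 (the receptor for haemoglobin bound to haptoglobin), Lyve1 (a hyaluronan receptor) and Siglec1 (CD169, a receptor for sialic acid) are members. Monocytes enter the brain from blood, classically through the chemokine receptor Ccr2 and with the surface protein Ly6c2. In mouse, Ms4a7 and Pf4 are carried by border macrophages and by monocyte-derived cells that settle in brain, Pf4 is also a chemokine of platelet granules, F13a1 encodes the A chain of coagulation factor XIII, and Cbr2 a carbonyl reductase.

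The cells were sorted as CD11b+/CD45inter microglia from mice with floxed Prmt1, the gene of an arginine methyltransferase. PRMT1FL mice carried the floxed alleles alone, and PRMT1Cx3cr1-KO mice also carried a tamoxifen-inducible Cre driven by Cx3cr1, a gene that microglia, border macrophages and monocytes all use. By the study's methods both genotypes were injected with tamoxifen. On a normal diet there were 3 PRMT1FL and 2 PRMT1Cx3cr1-KO libraries, labelled 11 weeks and not split by CD11c. On 0.2% cuprizone (CPZ), a copper chelator that causes loss of myelin, there was 1 library of PRMT1FL CD11c low cells, 1 of CD11c high cells of that genotype and 1 of PRMT1Cx3cr1-KO CD11c low cells, labelled 5 weeks, and CPZ values given as a run of 3 below keep this order. Diet therefore cannot be told apart from the CD11c gate and the week label, nor the deletion from the Cre allele, and the labels do not say whether replicates came from separate animals. P-values for a CPZ library rest on the spread between the normal-diet libraries. The adjusted p-values below come from limma, and a gene was called higher or lower at an adjusted p under 0.05 with an absolute log2 fold over 1.

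The libraries held 1579775 to 3520015 reads, with PRMT1FL CPZ CD11c high the shallowest. Prmt1 itself was at 86.3, 91.8 and 91.0 normalised read counts in PRMT1FL on normal diet, 60.8 and 82.6 in PRMT1Cx3cr1-KO on normal diet and 118, 102 and 81.0 on CPZ, so the 3 knockout libraries lay below the 5 others. The tables give 1 value for the whole gene, not for its floxed part. Itgax, the gene of CD11c, was 660, 1884 and 348 on CPZ against 50.4 to 79.3 on normal diet, the gated order. The 15 homeostatic microglia genes (P2ry12, Tmem119, Sall1 and others) summed to 15722 to 26186 normalised read counts per library, and the 10 border macrophage and monocyte genes to 486 to 1145. Microglia genes thus outweighed them in every library, and since these are bulk samples, fewer cells of a type and less RNA per cell cannot be told apart.

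Sequence sets a limit on one of the 10. Ly6c2 and its neighbour Ly6c1, which endothelial cells and several leukocytes use, are near copies on chromosome 15: over 393 coding bases they differ at 9, an identity of 97.7%. The first 120 coding bases of each are shown because reads from this stretch can be placed by only 6 letters, here in capitals.
Ly6c1: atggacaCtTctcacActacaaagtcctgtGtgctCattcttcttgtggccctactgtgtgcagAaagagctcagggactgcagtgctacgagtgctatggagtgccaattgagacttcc
Ly6c2: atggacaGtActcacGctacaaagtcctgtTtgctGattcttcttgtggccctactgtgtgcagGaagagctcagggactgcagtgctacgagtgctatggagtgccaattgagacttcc
Of the 318 windows of 76 bases, the read length, in the Ly6c2 coding sequence, 113 (35.5%) were letter for letter also in Ly6c1, so counts of the pair are uncertain between them. Over all annotated transcripts, 8.16% of Cbr2 windows recurred in Gm11771 and 0.538% of Siglec1 windows in other genes, and none did for Mrc1, Cd163, Lyve1, Ms4a7, Pf4 and F13a1.

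The stretches of 250 bases before the start sites, from RefSeq on build GRCm38.p6, were used for 8 of the 10 genes, all but Siglec1 and Lyve1. Both strands were searched for an interferon response core (GAAA, any 2 letters, GAAA, in 2.98% of 32851 mouse promoters of that length), a PU.1 core (GAGGAAGT, in 2.44%) and an AP-1 site (TGANTCA, in 6.75%). None of the promoters of these 8 genes held the interferon response core. The PU.1 core was found in those of Pf4 and Ly6c2, and the AP-1 site before the downstream start of Ms4a7. The promoters of Pf4 and Ms4a7 are shown because these genes had their highest levels in the same library, with the match in capitals: the reverse complement of the PU.1 core in Pf4, which starts at position -10, and the AP-1 site in Ms4a7, at -81, both counted back from the start site.
Pf4 (chr5:90772185-90772434, plus strand): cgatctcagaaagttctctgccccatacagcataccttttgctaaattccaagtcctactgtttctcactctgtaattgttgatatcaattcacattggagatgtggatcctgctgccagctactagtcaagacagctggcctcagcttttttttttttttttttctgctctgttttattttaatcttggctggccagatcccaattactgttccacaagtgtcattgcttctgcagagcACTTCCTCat
Ms4a7 (chr19:11334696-11334945, minus strand): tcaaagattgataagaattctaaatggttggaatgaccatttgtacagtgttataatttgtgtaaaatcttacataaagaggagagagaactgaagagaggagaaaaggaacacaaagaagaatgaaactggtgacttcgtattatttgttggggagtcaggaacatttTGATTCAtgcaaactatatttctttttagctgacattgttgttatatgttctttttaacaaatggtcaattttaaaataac
The promoters of Mrc1, Cd163 and F13a1, which were low together in CD11c high cells, held none of the searched letters. Neither did those of Ccr2 and Cbr2, which were not called in these cells. A match or its absence is a description of these windows and says nothing of binding.

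On the normal diet all of these genes but Ly6c2 were read in every library, with Mrc1 the most abundant per length. Divided by transcript length, the PRMT1FL means were 47.4 normalised read counts per kilobase for Mrc1, 34.6 for Pf4, 29.4 for Ccr2, 17.7 for F13a1 and for Siglec1, 13.9 for Cbr2, 13.8 for Ms4a7, 11.4 for Lyve1, 7.52 for Cd163 and 1.86 for Ly6c2. In that order Pf4 and Ccr2, F13a1 and Siglec1, and Cbr2, Ms4a7 and Lyve1, among others, lay closer together than the SD of their replicates. Mrc1 ran from 36.8 to 53.9 per kilobase and Pf4 from 18.0 to 49.2 over the PRMT1FL libraries, so their ranges overlapped. Mrc1 (chr2:14229414-14332023) had 194, 283 and 270 normalised read counts in the PRMT1FL libraries and 234 and 297 in PRMT1Cx3cr1-KO, and the genotypes overlapped.

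**Figure D1:**
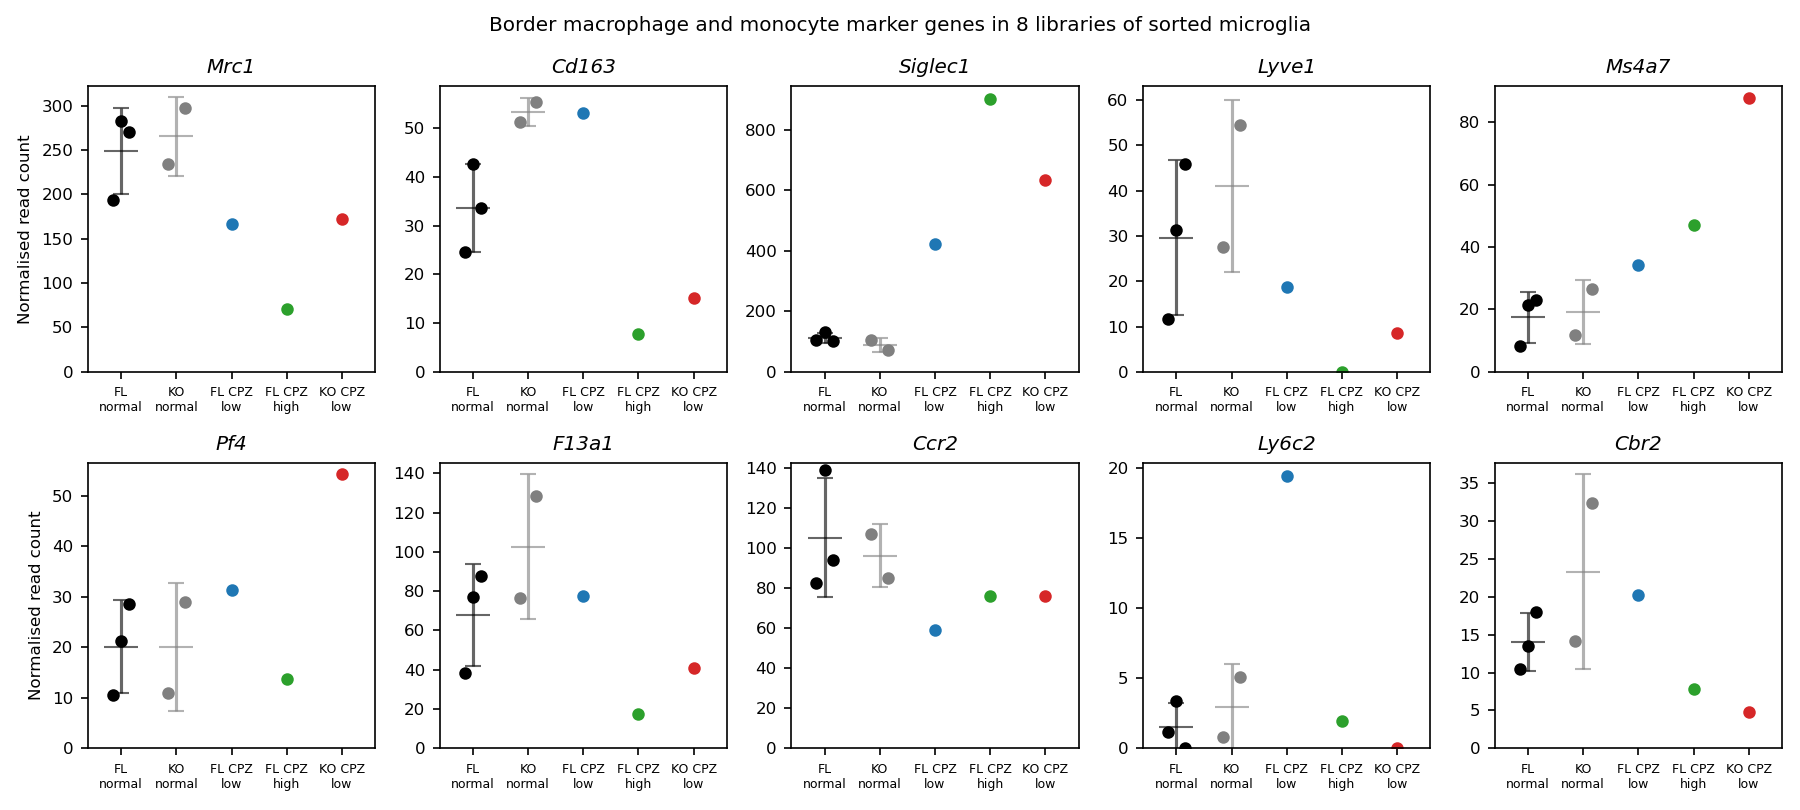
Normalised read count (vertical axis, linear from 0) of each of the 10 genes in 8 libraries, grouped on the horizontal axis by genotype (FL, PRMT1FL; KO, PRMT1Cx3cr1-KO), diet and CD11c gate. Points are libraries, and bars show mean and SD where a group has more than 1 library. Siglec1 and Ms4a7 lie above the normal-diet range in all 3 CPZ libraries, and Lyve1 is at 0 in CD11c high cells.

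The libraries of a genotype differed among themselves in a way that most of these genes shared. The share of all genes with the replicate orders given here was not counted. PRMT1FL replicate 1 was the lowest of the 3 for 8 of the 10 genes, for example Lyve1 (chr7:110850607-110862953) at 11.7 against 31.3 and 45.9 normalised read counts, and Ms4a7 at 8.16 against 21.3 and 23.0. PRMT1Cx3cr1-KO replicate 2 was above replicate 1 for 8 of the 10, among them Lyve1 (54.5 against 27.6), Pf4 (29.0 against 11.0) and Cbr2 (32.4 against 14.2). The spread within a genotype was therefore wide for Lyve1, Ms4a7 and Pf4 and narrower for Mrc1 and Siglec1. The neutrophil marker sum, by contrast, was highest in PRMT1FL replicate 1, at 607 normalised read counts against 336 to 363 in the other PRMT1FL libraries, and its part in the differences was not tested.

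Deletion of Prmt1 on the normal diet moved none of the 9 genes tested past the thresholds, with 0% of 11086 genes called (47 genes, none of them a member, without PRMT1Cx3cr1-KO replicate 2). In this comparison 1 member had an unadjusted p under 0.05, and edgeR and DESeq2 called 0 members. That member was Cd163 (chr6:124304651-124330527). It had 24.5, 42.5 and 33.6 normalised read counts in PRMT1FL and 51.3 and 55.4 in PRMT1Cx3cr1-KO, without overlap. Its log2 fold was 0.71 ± 0.27 (SE; limma adjusted p = 0.495). The widest other log2 folds were those of F13a1 (0.64 ± 0.33, adjusted p = 0.598) and Cbr2 (0.64 ± 0.42, adjusted p = 0.687), in genes whose genotypes overlapped. The share of all genes without such overlap was not counted. The 9 genes had a median log2 fold of 0.16, against 0.01 over all genes tested. Ly6c2 stayed below the mean of 10 required for a test here and in every other comparison.

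On CPZ the clearest movement was that of Siglec1 (chr2:131069220-131086765), a lectin receptor known to respond to type I interferon. Normalised read counts were 105, 131 and 101 in PRMT1FL and 104 and 72.4 in PRMT1Cx3cr1-KO on normal diet, and 422, 903 and 634 on CPZ. Each CPZ library lay above every normal-diet library. Siglec1 rose in CD11c low PRMT1FL cells by a log2 fold of 2.02 ± 0.18 (limma adjusted p = 2.19e-05), in CD11c high cells by 2.86 ± 0.17 (adjusted p = 1.33e-07) and in PRMT1Cx3cr1-KO CD11c low cells against their own normal diet by 2.85 ± 0.22 (adjusted p = 3.02e-05). Pooled reads gave 3.80-fold (95% exact interval 3.31 to 4.36), 8.13-fold (7.04 to 9.39) and 7.14-fold (6.11 to 8.36), intervals that cover counting error alone. These 3 calls held under every alternative run.

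The order of Siglec1 levels among CPZ libraries was less firm. CD11c high exceeded CD11c low PRMT1FL cells by a log2 fold of 1.10 ± 0.25 (limma adjusted p = 0.0409), a call lost without PRMT1FL normal-diet replicate 2 (adjusted p = 0.0538) or replicate 3 (0.055), and on the common-total scale (log2 fold 0.84). PRMT1Cx3cr1-KO CD11c low cells lay between them and were called different from neither, with log2 folds of 0.59 ± 0.25 (adjusted p = 0.205) against PRMT1FL CD11c low and -0.51 ± 0.25 (adjusted p = 0.232) against CD11c high. Siglec1 made up 9.21% to 21.6% of the summed normalised read count of the 10 genes on the normal diet and 46.8%, 78.8% and 58.0% on CPZ. Mrc1 went from 36.7% to 39.8% of that sum down to 18.5%, 6.14% and 15.8%. Without Siglec1 the sum was 381 to 714 on the normal diet and 480, 242 and 460 in the CPZ libraries, so the larger total on CPZ was carried by this gene.

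Mrc1, Cd163, Lyve1 and F13a1 were at their lowest in the CD11c high library. Mrc1 had 70.3 normalised read counts there, 167 in PRMT1FL CD11c low and 172 in PRMT1Cx3cr1-KO CD11c low, all below the normal-diet range of 194 to 297. Cd163 had 7.82 (4 reads) in CD11c high, against 53.0 in PRMT1FL CD11c low and 15.2 in PRMT1Cx3cr1-KO CD11c low. CD11c high and PRMT1Cx3cr1-KO CD11c low cells thus lay below every normal-diet value of Cd163, while PRMT1FL CD11c low lay within them. F13a1 (chr13:36867178-37050244), the transglutaminase that cross-links fibrin, had 38.5, 77.2 and 87.7 normalised read counts in PRMT1FL on normal diet, 76.5 and 129 in PRMT1Cx3cr1-KO, and 77.7, 17.6 and 41.0 on CPZ. Lyve1 had 0 reads in CD11c high, 18.7 normalised read counts in PRMT1FL CD11c low and 8.57 in PRMT1Cx3cr1-KO CD11c low. At the depth of the CD11c high library a count of 0 allows up to 3 reads, or 5.86 normalised read counts, and against that floor Lyve1 was at least 5.06-fold lower than the PRMT1FL normal-diet mean and at least 3.19-fold lower than PRMT1FL CD11c low. With the counting error of both groups taken in, the lower 95% exact limits of these folds were 4.30 and 2.404.

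Against PRMT1FL normal diet, CD11c high cells had 4 of the 9 tested genes called lower and 1, Siglec1, called higher, where 9.3% of all genes were called lower and 7% higher. Mrc1 fell by 1.93 ± 0.22 on the log2 scale (limma adjusted p = 2.75e-05), Cd163 fell by 2.04 ± 0.44 (adjusted p = 0.00282), F13a1 fell by 1.93 ± 0.43 (adjusted p = 0.00365) and Lyve1 fell by 4.57 ± 0.69 (adjusted p = 0.000272), the last a fitted value that depends on the pseudocount of 1. These 4 calls held without each normal-diet replicate in turn and under median-of-ratios scaling, on which the median of all genes moved from -0.16 to -0.02 and the share of called genes that were higher from 43.0% to 54.3%. All 4 were lost without a filter on low values (adjusted p = 0.112 for Mrc1, 0.154 for Cd163, 0.293 for F13a1 and 0.182 for Lyve1), and that of Cd163 also in DESeq2 (0.114). Ms4a7, at a log2 fold of 1.35 ± 0.56 (adjusted p = 0.0707), passed under median-of-ratios scaling (0.0453) and without PRMT1FL replicate 3 (0.0406). In PRMT1FL CD11c low cells only Siglec1 of the 9 was called, higher, where 9.33% of genes were called higher and 2.95% lower. The log2 folds of Mrc1 and Ccr2 there were -0.45 ± 0.21 (adjusted p = 0.137) and -0.68 ± 0.28 (adjusted p = 0.0953).

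**Figure D2:**
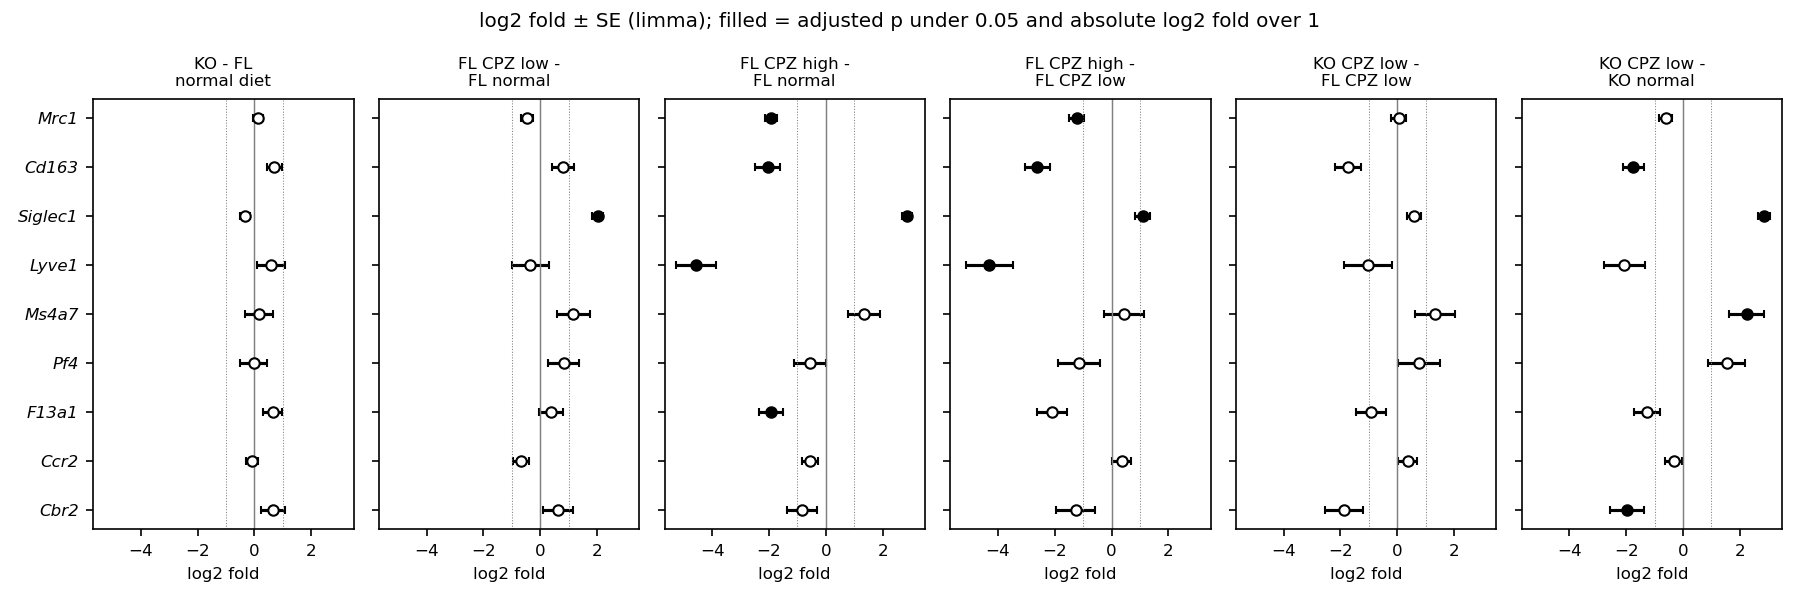
Log2 fold (horizontal axis) with its SE for the 9 tested genes (rows) in 6 comparisons (panels; FL, PRMT1FL; KO, PRMT1Cx3cr1-KO; low and high, CD11c gate). Filled points were called at an adjusted p under 0.05 with an absolute log2 fold over 1, marked by dotted lines. No point is filled for genotype on normal diet or between the CD11c low CPZ libraries, and 4 genes are called lower in CD11c high against PRMT1FL normal diet.

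Between the CD11c gates of PRMT1FL mice on CPZ, 3 of the 9 genes were called lower in CD11c high and Siglec1 higher, where 1.24% of all genes were called lower and 0.686% higher. Mrc1 fell by 1.23 ± 0.26 on the log2 scale (limma adjusted p = 0.0335), Cd163 fell by 2.62 ± 0.44 (adjusted p = 0.0139) and Lyve1 fell by 4.30 ± 0.84 (adjusted p = 0.0256), while F13a1 stood just outside, at -2.08 ± 0.53 (adjusted p = 0.0548). With 36 reads of Mrc1 in CD11c high against 223 in CD11c low, the pooled reads were 2.37-fold lower (95% exact interval 1.66 to 3.47, counting error alone), and with 4 reads of Cd163 against 71 they were 6.79-fold lower (2.54 to 25.6). The call of Lyve1 was lost without PRMT1FL normal-diet replicate 2 (adjusted p = 0.0533), and that of F13a1 was gained without replicate 1 (0.00988). All 4 calls between the gates were lost with the filter loosened to a mean of at least 1 (adjusted p = 0.096 for Mrc1, 0.0611 for Cd163, 0.0864 for Lyve1 and 0.109 for Siglec1), and in edgeR those of Mrc1 (0.0702) and Lyve1 (0.176). Each gate held 1 library, so the spread is borrowed from the normal-diet groups. On the common-total scale the median of all genes lay at -0.23 in place of 0.02, 3.93% in place of 35.6% of called genes were higher in CD11c high, and 4 members were called lower and 0 higher.

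Ms4a7 and Pf4 had their highest levels in the PRMT1Cx3cr1-KO CPZ library. Ms4a7 (chr19:11321039-11336146), a membrane protein of the MS4A family, had 34.4, 46.9 and 87.6 normalised read counts on CPZ, against 8.16 to 26.4 on the normal diet. Pf4 (chr5:90772435-90773383) had 31.4, 13.7 and 54.3 on CPZ, against 10.5 to 29.0. Every CPZ library was thus above the normal-diet range for Ms4a7, and the CD11c low libraries were for Pf4. Within PRMT1Cx3cr1-KO, Ms4a7 rose on CPZ by a log2 fold of 2.24 ± 0.62 (limma adjusted p = 0.0316), a call lost without PRMT1Cx3cr1-KO normal-diet replicate 1 (log2 fold 1.69, adjusted p = 0.12), and Pf4 had 1.54 ± 0.64 (adjusted p = 0.121). Of 7 platelet markers, which bear on Pf4, Gp1ba was at 0 in all 8 libraries and Ppbp had a read only in PRMT1FL replicate 3. The platelet list summed to 130, 60.6 and 196 in the CPZ libraries against 213 to 300 on the normal diet, most of it Gp9 and Treml1.

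Cbr2 (chr11:120729485-120732021), the carbonyl reductase, was below its normal-diet range in CD11c high and PRMT1Cx3cr1-KO CPZ cells, as Cd163 and Lyve1 were. It had 10.5, 13.4 and 18.0 in PRMT1FL and 14.2 and 32.4 in PRMT1Cx3cr1-KO on normal diet, and 20.2, 7.82 and 4.76 on CPZ. The last of these rests on 5 reads. In PRMT1Cx3cr1-KO, CPZ against normal diet called 4 of the 9 genes, where 5.1% of all genes were called higher and 3.37% lower: Siglec1 and Ms4a7 rose, Cd163 fell by 1.74 ± 0.38 on the log2 scale (limma adjusted p = 0.0121) and Cbr2 fell by 1.97 ± 0.59 (adjusted p = 0.0432). Cd163 missed the threshold without PRMT1Cx3cr1-KO replicate 2 (0.0532), and Cbr2 without that library (log2 fold -1.40, adjusted p = 0.208) or PRMT1FL replicate 2 (0.0657) or 3 (0.0665). At a mean of at least 1 the calls of Ms4a7 (adjusted p = 0.0837) and Cbr2 (0.0795) were lost, and in DESeq2 those of Cd163 (0.0801) and Cbr2 (0.228). Without PRMT1FL replicate 1, Lyve1 (log2 fold -2.06, adjusted p = 0.017) and F13a1 (-1.26, 0.0162) were called lower as well.

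Of the monocyte genes, Ccr2 was called in no comparison and Ly6c2 was too low to test. Ccr2 (chr9:124102183-124109140) had 82.8, 139 and 94.3 normalised read counts in PRMT1FL and 107 and 85.2 in PRMT1Cx3cr1-KO on normal diet, and 59.0, 76.2 and 76.2 on CPZ. All 3 CPZ libraries lay below the normal-diet range. Its pooled reads in PRMT1FL CD11c low were 1.77-fold lower than on the normal diet (95% exact interval 1.38 to 2.29, counting error alone). In CD11c high they were 1.37-fold lower (0.979 to 1.96). In PRMT1Cx3cr1-KO CPZ they were 1.27-fold lower than on that genotype's normal diet (0.981 to 1.66). For these last CPZ libraries counting error alone allows equal levels. Ly6c2 (chr15:75108161-75111937) had 1, 3 and 0 reads in PRMT1FL and 1 and 6 in PRMT1Cx3cr1-KO on normal diet, and 26, 1 and 0 reads on CPZ. In normalised read counts that is 19.4 in PRMT1FL CD11c low and 0 to 5.11 elsewhere. In PRMT1Cx3cr1-KO CD11c low a count of 0 allows up to 2.86, and the PRMT1FL library was at least 6.80-fold higher than that floor, with a lower 95% exact limit of 5.14 once the error of the 26 reads is taken in. Ly6c1 had 63.5 in the same PRMT1FL CD11c low library against 3.50 to 19.5 elsewhere, so the near copies were high together. That library also held the highest sums of neutrophil markers (930 normalised read counts, against 8.57 to 607 elsewhere) and of endothelial markers (1359, against 558 to 1043). Cldn5, an endothelial tight junction gene, was 128 there against 14.0 to 30.3 elsewhere. Flt1 was 454 there, and 598 and 535 in the other CPZ libraries. Of 12 endothelial genes tested there against the normal diet, 1 had a log2 fold below 0. It was Pecam1, at 82.2 against 206 to 236. The part of neutrophil and endothelial markers in the Ly6c2 level was not tested.

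Between the genotypes on CPZ, CD11c low cells differed in no member at the thresholds, where 0.971% of genes were called higher and 1.22% lower in PRMT1Cx3cr1-KO. At an unadjusted p under 0.05 there were 3 members, edgeR called 1 and DESeq2 0. The nearest was Cd163, at 15.2 normalised read counts (16 reads) in PRMT1Cx3cr1-KO and 53.0 (71 reads) in PRMT1FL: its log2 fold was -1.73 ± 0.44 (limma adjusted p = 0.0553). It was called in edgeR (log2 fold -1.82, adjusted p = 0.0328) and without PRMT1FL normal-diet replicate 1 (0.0232). Cbr2 had -1.88 ± 0.68 (adjusted p = 0.141) and Ms4a7 1.33 ± 0.71 (adjusted p = 0.311). Mrc1 was nearly equal, at 172 against 167 normalised read counts, a ratio of 1.03 (95% exact interval 0.846 to 1.26, counting error alone). The Cd163 values lay higher in the knockout on the normal diet and lower on CPZ, and the test of that difference gave an interaction of -2.42 ± 0.53 (limma adjusted p = 0.0683). The interaction was called for 0 members, where 0.142% of all genes were called above 0 and 0.721% below, with 4 members at an unadjusted p under 0.05. For Cd163 it passed in edgeR (-2.48, adjusted p = 0.0305) and without PRMT1FL normal-diet replicate 1 (-2.22, 0.0424), and DESeq2 called 0 members. Neutrophil markers moved alongside: 6 of the 6 tested were lower in PRMT1Cx3cr1-KO CD11c low than in PRMT1FL CD11c low, where S100a9 was at 0 against 141 normalised read counts, and the part of this in the Cd163 value was not tested.

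Against CD11c high PRMT1FL cells, PRMT1Cx3cr1-KO CD11c low cells had 2 members called higher and 0 lower, where 2.49% of genes were called higher and 1.36% lower. Mrc1 was higher by a log2 fold of 1.28 ± 0.26 (limma adjusted p = 0.0184), or 172 against 70.3 normalised read counts. Lyve1, called at 3.26 ± 0.84 (adjusted p = 0.0427), rests on 9 reads against 0, and the lower 95% exact limit of its fold was 0.962, so counting error alone allows equal levels. The call of Lyve1 was lost without PRMT1FL normal-diet replicate 2 (adjusted p = 0.0682) or 3 (0.0529), and neither edgeR (adjusted p = 0.0509 for Mrc1) nor DESeq2 (0.0503) called a member here. Both calls were also lost at a mean of at least 1 (0.0678 for Mrc1 and 0.107 for Lyve1). The CD11c gate and the genotype both differ in this comparison.

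Taken as lists of the genes that could be tested, the wider border macrophage and monocyte genes did not follow the receptors that fell, though single genes of both lists did. Of 28 other border macrophage genes, 5 of the 20 tested were called higher and 0 lower in PRMT1FL CD11c low against normal diet, 5 higher and 2 lower of 18 in CD11c high, and 8 higher and 0 lower of 19 in PRMT1Cx3cr1-KO CPZ against its normal diet. Colec12, a collectin with scavenger receptor function, rose most of them, from 4.48 to 11.9 normalised read counts on the normal diet to 254, 350 and 328 on CPZ. Colec12 and Wfdc17 were too low to test on the normal diet alone. They passed the filter only through the CPZ libraries where they were high, which favours higher calls. Wfdc17 went from 3.50 to 5.96 up to 29.9, 43.0 and 55.2, and was called in all 3 contrasts. Folr2, a folate receptor of border and other tissue macrophages, had 64.2, 27.4 and 72.4 against 5.52 to 23.9, and was called in the CD11c low contrasts. Stab1, a scavenger receptor and the most abundant of the list, had 1195, 1167 and 1617 against 1657 to 1917 and was called in none. Among the highest folds in PRMT1Cx3cr1-KO against CD11c high was Cd38, an ectoenzyme that breaks down NAD, at 111 against 7.82 normalised read counts. Ccl24, an eosinophil chemokine, fell in CD11c high by 2.55 on the log2 scale (adjusted p = 0.00386). The choroid plexus and meningeal lectins Cd209b, Cd209d, Cd209f and Cd209g stayed at or under 2.56 normalised read counts in every library. The median log2 fold of the list was 0.64, 0.16 and 0.79 in these contrasts, against 0.64, -0.85 and -0.61 for the 9 members and 0.08, -0.16 and -0.00 over all genes tested.

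**Figure D3:**
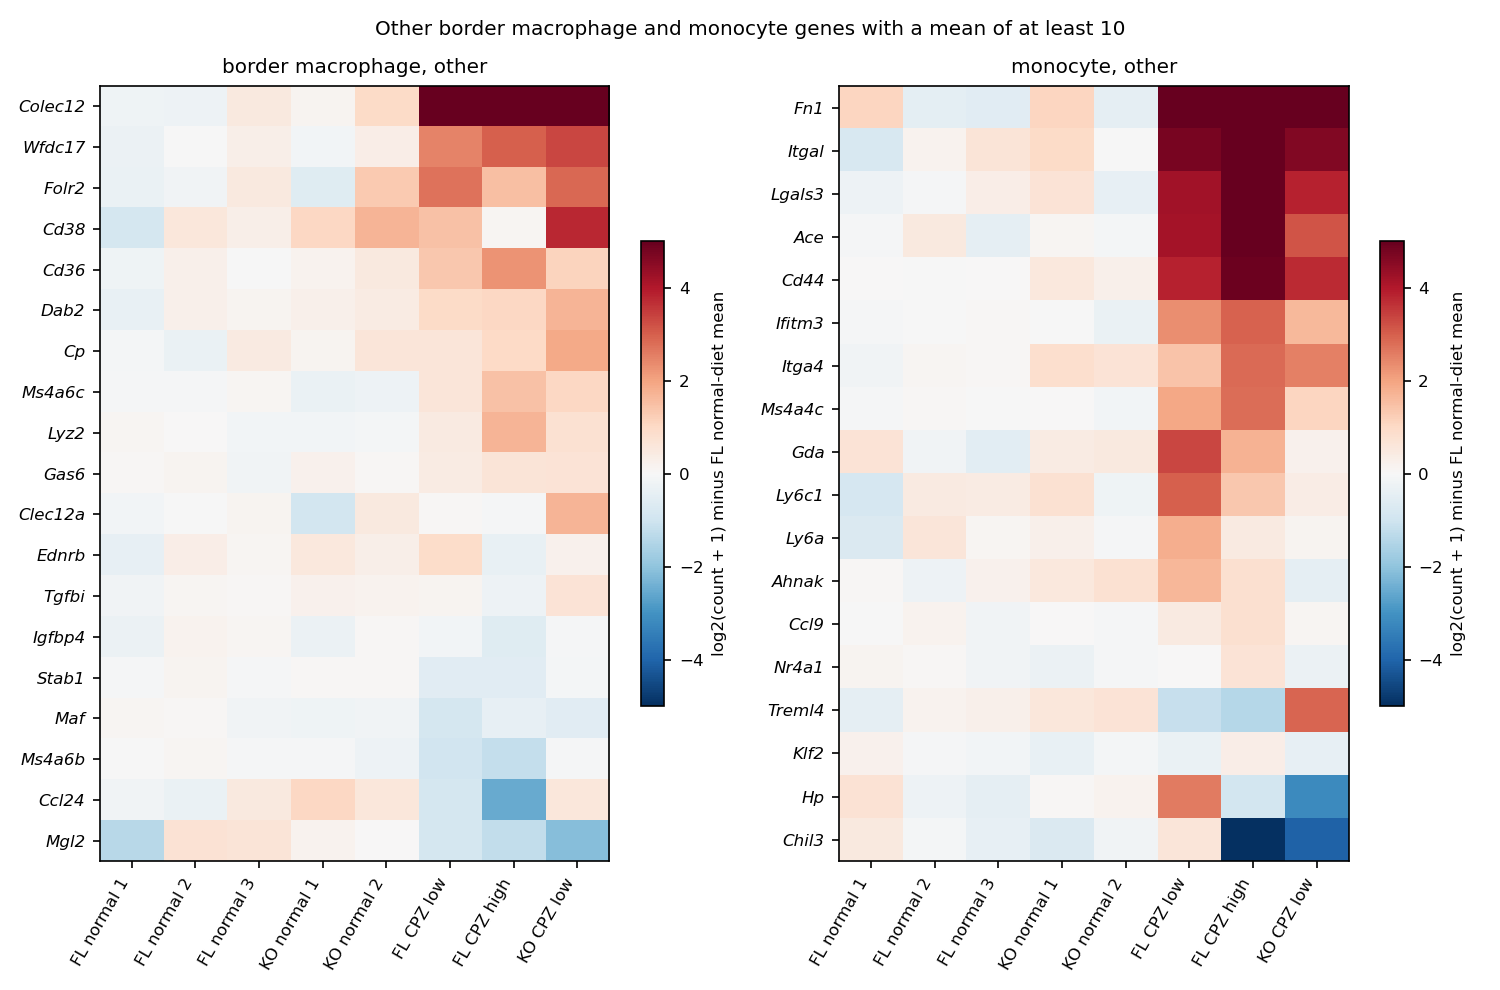
Log2(normalised read count + 1) minus the PRMT1FL normal-diet mean (colour, red higher and blue lower, limits of -5 and 5) for border macrophage genes (left) and monocyte genes (right) other than the 10, where their mean is at least 10. Columns are the 8 libraries (FL, PRMT1FL; KO, PRMT1Cx3cr1-KO). Colec12, Fn1, Itgal, Lgals3 and Cd44 are red in all 3 CPZ libraries, and Hp and Chil3 are blue in PRMT1Cx3cr1-KO CPZ.

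Of 29 other monocyte genes, 13 of the 18 tested were called higher and 0 lower in PRMT1FL CD11c low, 8 higher and 2 lower of 15 in CD11c high, and 8 higher and 3 lower of 18 in PRMT1Cx3cr1-KO CPZ against its normal diet, with median log2 folds of 2.24, 2.64 and 0.62. In the genotype comparison on normal diet only 12 of the list averaged enough to be tested. Itgal, Ace, Ly6c1, Hp, Gda and Ms4a4c entered the PRMT1FL CD11c low test only through that CPZ library, where they were high. The filter thus favours higher calls in these counts, and likewise in those of the other lists. The highest log2 folds of the list in PRMT1FL CD11c low were those of Fn1, Itgal and Ace. Fn1, which encodes fibronectin, had 27.9 to 89.2 normalised read counts on the normal diet and 1491, 2534 and 2632 on CPZ. Itgal, the alpha chain of the integrin LFA-1, went from 3.50 to 14.2 up to 212, 309 and 194, and Ace, angiotensin-converting enzyme, from 2.46 to 5.60 up to 83.7, 192 and 40.0. Each of the 3 was called higher in the 3 contrasts. Hp, haptoglobin, rose in PRMT1FL CD11c low (log2 fold 2.73, limma adjusted p = 0.00519) and fell by 3.32 in PRMT1Cx3cr1-KO CPZ (adjusted p = 0.00834), with 55.3 normalised read counts in the former library and 0 in the latter. Chil3 had 47.1 and 0.952 in these libraries, and both genes were chosen after their values were seen. Treml4, a receptor of patrolling monocytes, was high in PRMT1Cx3cr1-KO CD11c low alone, at 178 against 7.82 to 36.6. Nr4a1, the most abundant of the list, also answers to cell handling and had 1372, 2188 and 1084 against 1102 to 1491.

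Markers of other cells were read beside these genes. The neutrophil list summed to 930, 78.2 and 8.57 normalised read counts on CPZ, against 245 to 607 on the normal diet. Of its tested genes, 5 of 8 were called higher in PRMT1FL CD11c low, 5 of 6 lower in CD11c high and 6 of 6 lower in PRMT1Cx3cr1-KO CPZ against its normal diet. Dendritic cell markers summed to 144, 52.8 and 52.4 against 191 to 227, of which Irf4 had 68.7, 21.5 and 21.0, and Xcr1 and Clec9a were at or under 5.52 in every library. Lymphocyte markers summed to at most 44.9, none reached the test, and Cd3d, Cd3g, Cd8a and Ncr1 were at 0 throughout. The fall of Mrc1, Cd163 and Lyve1 in CD11c high was thus accompanied by a lower neutrophil sum and by lower Irf4 and Itgae. The same library had the highest sum of other monocyte genes, 9316. Its homeostatic microglia genes summed to 25182, within the normal-diet range. Whether these shifts share in the member values was not tested.

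**Figure D4:**
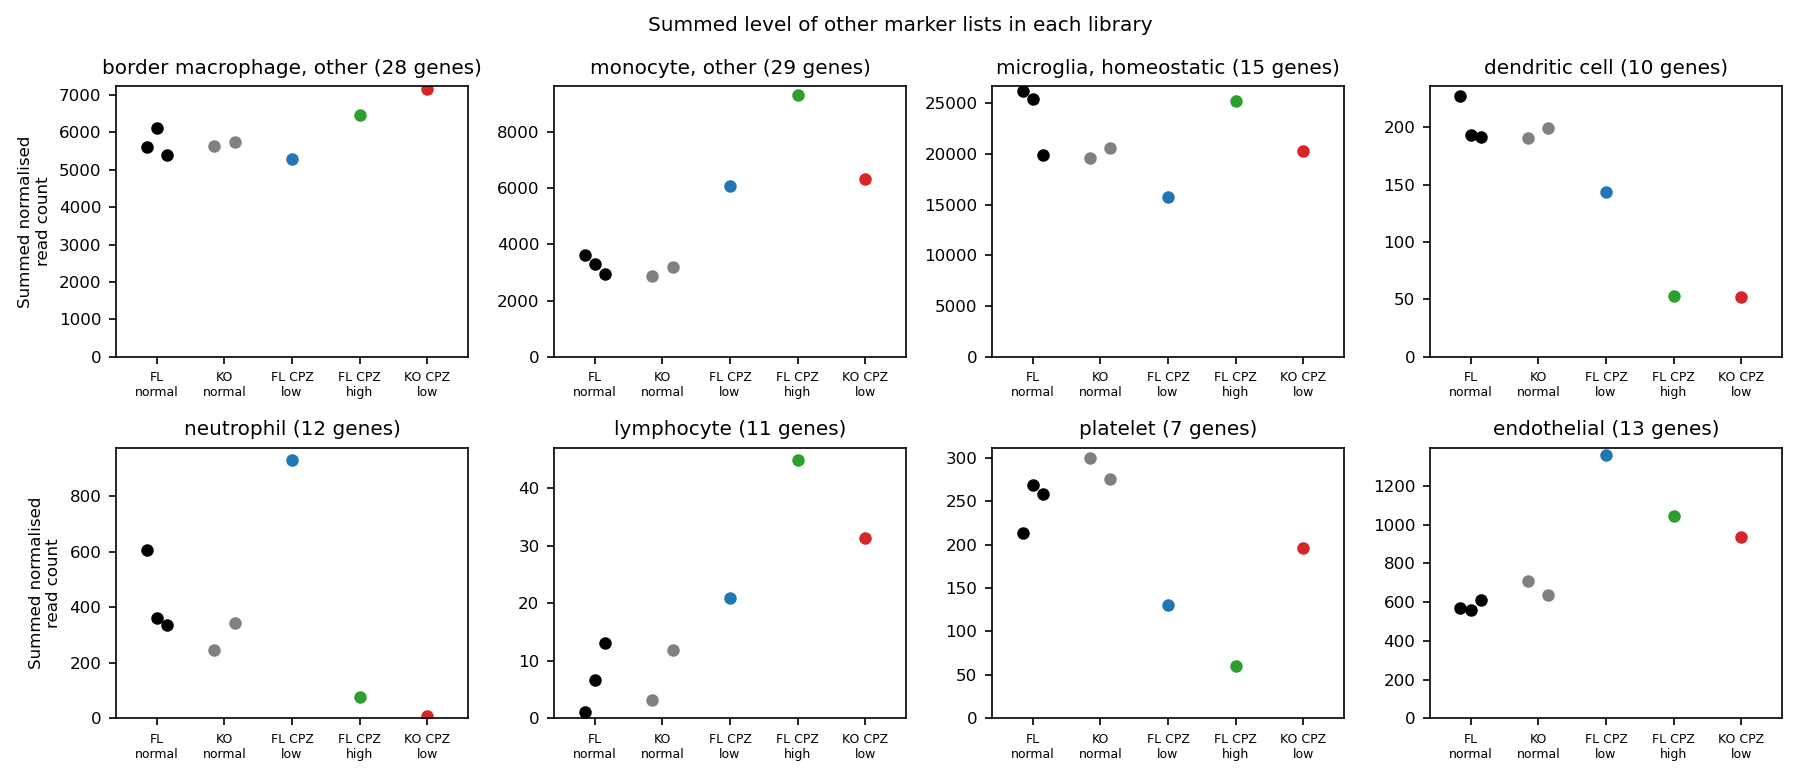
Summed normalised read count (vertical axes, linear from 0, scaled per panel) of 8 other marker lists in each library, grouped on the horizontal axis by genotype, diet and CD11c gate (FL, PRMT1FL; KO, PRMT1Cx3cr1-KO). Points are libraries. The neutrophil sum runs from 930 in PRMT1FL CPZ CD11c low to 8.57 in PRMT1Cx3cr1-KO CPZ CD11c low, and the monocyte sum is highest, at 9316, in CD11c high.

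Levels of the 10 genes were correlated across the 8 libraries, which differ in diet, gate and depth. Log2 levels of Mrc1 and Lyve1 had a Pearson r of 0.97, Lyve1 and F13a1 0.96 and Cd163 and F13a1 0.93. Siglec1 ran against Mrc1 (r = -0.85) and with Ms4a7 (0.77), Ms4a7 ran with Pf4 (0.76), and Ccr2 had no r above 0.53 with another member. Among 11230 genes, those most like Mrc1 over the 8 libraries were Sox12 (r = 0.98), Zfr2 (0.98) and Nop2 (0.98). Most like Siglec1 were Nme2, Mdfic and Ank (each 0.99), most like F13a1 were Nop58 (0.97), Znhit6 (0.97) and Pinx1 (0.96), and most like Ccr2 were Ro60 (0.96), 5730455P16Rik (0.96) and Atf2 (0.95). None of these likenesses was tested, and the 8 libraries hold only 5 groups.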

How the data were processed

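RNA-seq of sorted mouse microglia gave 8 libraries in 6 deposited tables, each of 1 pair of groups. Per the labels and methods, the authors trimmed single-end reads of 76 bases, aligned them with Bowtie2, removed duplicates with SAMtools (0.1.19), counted genes with HOMER and tested with DESeq2. The labels name hg19, GRCm38 and mm10, and the coordinates are those of mouse GRCm38. The strand setting is not given in the sources used here. The deposited values are a signal, read counts scaled by 1 factor per library to a common total, from which whole reads were recovered (100% whole within 0.1 of a read). The joint table of 25154 genes leaves out 84 for which the tables disagreed by over 1 read and over 5%. The authors' log2 folds, p-values and base means were not used.

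Recovered reads scaled by median of ratios over the 8 libraries are the normalised read counts, and all 8 entered 1 fit for comparisons between CPZ libraries, within PRMT1Cx3cr1-KO and for the interaction. The genotype comparison on normal diet and the 2 against PRMT1FL normal diet were fitted on the deposited table of the pair. A limma fit (3.58.1, R 4.3.3) was made with a trend on log2(value + 1), a scale that understates folds of low genes, where a gene averaged at least 10, with Benjamini-Hochberg adjustment over all genes tested. Alternatives were edgeR (4.0.16) and DESeq2 (1.42.0) on recovered reads, other scalings, filters and pseudocounts, the replicate block, and each normal-diet replicate left out. The fit was tested on simulated data. Intervals are exact conditional binomial ones and, like the floor of 3 reads, cover counting error only.

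Members and lists were chosen with earlier results of these data known. All 10 members are named, and of each other list the most abundant gene and at most 3 called genes at either end per comparison. Other single genes of the lists were picked after their values were seen.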

Additional observations from a re-analysis of the deposited data

How the results depend on the processing

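Over 72 member log2 folds, 851 of 922 alternatives kept direction and side of the threshold, 42 lost a call, 12 gained one and 17 turned direction, and DESeq2 gave no adjusted p in 13 more. The number of members called, 5 in PRMT1FL CD11c high against normal diet, was 1 without a filter on low values. Between the CD11c gates it was 4, and 0 with no filter, 0 at a mean of at least 1, 2 in edgeR and 2 in DESeq2. Between genotypes on CPZ it was 0, and 1 on the common-total scale, 1 with a pseudocount of 5 and 1 in edgeR, always Cd163. In PRMT1Cx3cr1-KO on CPZ against normal diet it was 4, and 1 with no filter, 2 at a mean of at least 1 and 2 in DESeq2. In PRMT1Cx3cr1-KO CD11c low against CD11c high it was 2, and 0 with no filter, 0 at a mean of at least 1, 1 with a pseudocount of 5, 0 in edgeR and 0 in DESeq2. The interaction had 0, and 1 in edgeR. A looser filter brings in more low genes, and the cause of the other moves was not tested.

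Leaving out each normal-diet replicate gave 2 to 5 members called between the gates, 0 to 1 between genotypes on CPZ, 2 to 6 in PRMT1Cx3cr1-KO CPZ against normal diet, 1 to 2 against CD11c high and 0 to 1 for the interaction. Directions turned in values near 0. On the normal diet the log2 fold ranged from -0.075 to 0.30 for Mrc1, -0.40 to 0.72 for Ms4a7, -0.70 to 0.63 for Pf4 and -0.26 to 0.13 for Ccr2. Lyve1 in PRMT1FL CD11c low ranged from -0.91 to 0.093, and the interaction of Mrc1 from -0.22 to 0.12. Between genotypes on CPZ, Mrc1 was -0.060 on the common-total scale. Ccr2 in PRMT1Cx3cr1-KO against CD11c high was 0.14 on that scale, 0.034 with TMM and 0.012 in edgeR.

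Whether same-numbered normal-diet samples belong together is not known. Their deviations correlated at 0.07 and -0.00 over 11086 genes. With 2 PRMT1Cx3cr1-KO libraries, whose deviations mirror each other, this cannot exclude a pairing. With the replicate block limma called 3 genes in place of 0, and 0 members. At an unadjusted p under 0.05 there were then 3 members in place of 1, and the log2 fold of Pf4 was 0.29. Over all genes, no filter called 11 in place of 0 on the normal diet, DESeq2 called 7 and leaving out a replicate gave 0 to 47. Elsewhere, no filter gave 641 in place of 1399 for PRMT1FL CD11c low, 1071 in place of 1781 for CD11c high, 504 in place of 216 between gates, 290 in place of 952 for PRMT1Cx3cr1-KO CPZ and 229 in place of 97 for the interaction. A mean of at least 1 gave 55 between gates, 5 in place of 246 between genotypes on CPZ, 235 in place of 433 against CD11c high and 0 for the interaction. Leaving out a normal-diet replicate gave 137 to 367 between gates, 174 to 494 between genotypes on CPZ, 741 to 1099 in PRMT1Cx3cr1-KO CPZ, 342 to 583 against CD11c high and 20 to 214 for the interaction. DESeq2 gave 92 between gates, 128 between genotypes on CPZ, 634 in PRMT1Cx3cr1-KO CPZ and 180 against CD11c high, and edgeR gave 467 between genotypes and 235 for the interaction. Of called genes, 29.1% were higher in the knockout on CPZ on the common-total scale in place of 44.3%, and 81.4% in place of 64.7% against CD11c high. Depth limits Lyve1, Cd163 and Cbr2 in CD11c high and Cbr2 in PRMT1Cx3cr1-KO CPZ, each at 5 reads or fewer.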
